A study of Rattus norvegicus with 11 samples.

Results

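Reference genes are transcripts against which RT-qPCR values are divided, on the premise that their own level does not move with the treatment. The 8 described here, chosen by gene name on the array, were Actb, Hprt, Ppia, Ywhaz, Pgk1, Tbp, B2m and Sdha, of 35581 gene names on the array. They were measured by 15 of the 41012 non-control probes. The study itself used β-actin, the product of Actb, as the endogenous control of its RT-qPCR. None of the 15 probes passed both thresholds for differential expression between heroin and saline rats under any of 4 scalings of the whole array. The thresholds were an unadjusted p under 0.02 and at least 1.4-fold. Of all tested probes 1.28% to 3.05% passed, so a count of 0 among 15 says little about these genes. By its brightest probe each of the 8 genes was higher in heroin rats when arrays were scaled to their 50th percentile. The same held for 78.7% of all tested probes, and only some of the 8 genes were higher under other scalings.

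Medial prefrontal cortex was taken from male rats aged 4 months, of a strain not given in the sources used here. In the heroin group 6 rats had licked a spout for intravenous heroin in daily sessions for 14 days, under a schedule of 10 licks per infusion. The 5 saline rats received a yoked infusion of saline whenever a matched rat received heroin, and never had the drug. Both groups then spent 14 days in enforced abstinence and 90 minutes back in the chamber with no drug delivered (extinction) before the tissue was collected, so that time without drug and re-exposure to the chamber are shared by heroin and saline rats. The study's methods name 12 arrays in equal groups, and saline rat 1 was not analysed here. No label says that equally numbered heroin and saline rats were yoked to each other. Each RNA was labelled with Cy3 and hybridised alone to an array of 60-base probes.

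The genes were picked for reference use because they serve unrelated basic functions. Actb encodes the cytoskeletal β-actin. Pgk1 encodes phosphoglycerate kinase of glycolysis, Hprt the purine salvage enzyme hypoxanthine phosphoribosyltransferase, and Sdha the flavoprotein subunit of succinate dehydrogenase in mitochondria. Ppia encodes the peptidyl-prolyl isomerase cyclophilin A, Ywhaz the zeta form of the 14-3-3 adaptor proteins, Tbp the TATA-binding protein of the general transcription machinery, and B2m the β2-microglobulin light chain of MHC class I molecules. Any reference gene can fail when RNA quality, cell composition or the treatment itself shifts its level, which is why several are normally tested together.

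Genes with more than one probe show how far the answer depends on which stretch of a transcript is read. Actb had 2 probes, Hprt 4 and B2m 4, and the other 5 genes had 1 each. The 2 Actb probes, placed by the array's annotation on rn3 chromosome 12 at chr12:12079638-12079821 (across an intron) and chr12:12079523-12079582, are shown because their ratio was almost constant across rats:
Actb A_44_P423810: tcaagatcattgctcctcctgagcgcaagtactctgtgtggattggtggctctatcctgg
Actb A_44_P423803: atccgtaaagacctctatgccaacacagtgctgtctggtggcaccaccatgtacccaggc
The Ppia probe, at chr14:87185243-87187559 and also spanning an intron, is shown because it was the most variable of the 8:
Ppia A_42_P595960: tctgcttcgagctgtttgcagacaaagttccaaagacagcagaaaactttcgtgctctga
For Hprt, 2 probes lay upstream at chrX:140015543-140021431 and chrX:140015547-140021438, across an intron, and 2 lay further downstream at chrX:140034907-140034966 and chrX:140034957-140035016. The upstream pair overlapped almost fully, but one sequence carried 3 bases within the overlap, in capitals, that the other lacked:
Hprt A_44_P365155: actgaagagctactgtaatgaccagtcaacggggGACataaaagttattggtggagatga
Hprt A_44_P575340: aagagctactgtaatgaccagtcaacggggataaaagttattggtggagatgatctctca
The downstream pair shared 10 bases at their ends, in capitals in these 30-base stretches:
Hprt A_44_P1058445, last 30 bases: catatcagtaacagcatctaAGAGGTTTCC
Hprt A_43_P11257, first 30 bases: AGAGGTTTCCccagtggaataaacatgttt
The remaining probes lay at chr7:72305280-72305339 (Ywhaz), chrX:94410216-94410275 (Pgk1), chr1:54410133-54410192 (Tbp) and chr1:29767165-29767224 (Sdha). The B2m probes lay in 2 places. A_44_P214040 at chr3:108836592-108838077 and A_43_P11442 at chr3:108836611-108838096 shared 41 bases, whereas A_44_P122632 at chr3:108839244-108839302 and A_44_P535612 at chr3:108839368-108839427 came from an expressed sequence tag further along the chromosome.

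Of all non-control probes, 25587 were well above background on all 11 arrays and 25555 could be tested. All 15 reference probes were among them, and no reference spot was saturated. Median signals ranged from 42.7 to 78.3 on heroin arrays and from 58.0 to 83.2 on saline arrays, and between 28185 and 33835 probes were detected per array. The array of heroin rat 6 had both the lowest median signal and the fewest detected probes. The tissue label was checked on marker genes. All 6 neuronal markers and the 1 cortical marker found on the array (Nov) were detected in every rat. The striatal markers Drd1a, Adora2a, Ppp1r1b and Rgs9 were low, with group means between 0.753 and 5.65 array medians, and Drd2 was not detected on all arrays. The summed striatal signal was uneven, from 7.73 to 11.1 array medians in heroin rats and from 7.88 to 22.1 in saline rats. The highest saline sum thus lay above every heroin sum, and the part of the dissection in this was not tested. Each heroin sample was on slide position 4 and each saline sample on position 3, so position and treatment cannot be told apart.

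Actb, the gene used by the study, was higher on average in heroin rats by an amount within the spread. Signals are given throughout as multiples of the median non-control probe on the same array. In heroin rats the brightest Actb probe ranged from 330 (rat 6) to 567.6 (rat 3) with a median of 455 array medians, a mean of 454 ± 77.1 (SD, n = 6). The saline rats 2 to 6 measured 390, 354, 386, 449 and 339, a mean of 383 ± 42.3 (SD, n = 5). The lowest value of all belonged to heroin rat 6, although 3 heroin rats lay above every saline rat. The log2 change, heroin minus saline, was 0.23 with a standard error of 0.14 and a limma p of 0.125, which Benjamini-Hochberg adjustment over all tested probes raised to 0.336. The exact permutation test over all divisions of the rats into 6 and 5, which can go no lower than p = 0.00216, gave 0.113. The other Actb probe changed by 0.20, with an exact permutation p of 0.184.

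Of the metabolic enzymes, Pgk1 and Hprt had the largest changes of the 8 genes. The glycolytic gene Pgk1 ranged from 80.4 to 102 array medians in heroin rats, with a median of 86.6 and a mean of 88.1 ± 8.12 (SD, n = 6). The saline rats 2 to 6 measured 52.5, 56.3, 61.1, 86.7 and 64.5, a mean of 64.2 ± 13.4 (SD, n = 5). Every heroin rat exceeded every saline rat but saline rat 5, which lay above 3 of them. The log2 change of 0.47 with a standard error of 0.14 was the largest of the 15 probes, at 1.39-fold just short of the fold threshold, with a limma p of 0.00432, an adjusted p of 0.263 and an exact permutation p of 0.0108. Pgk1 was higher in heroin in 5 of 5 pairs of rats whose arrays were scanned together. Without saline rat 5 the change was 0.59 and passed both thresholds, and it also passed without heroin rat 2 (0.498) or without heroin rat 4 (0.496).

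Hprt was read by 4 probes. The brightest, the downstream probe A_43_P11257, ranged from 157 to 220 array medians with a median of 184 in the 5 heroin rats with a usable spot, since the spot of heroin rat 3 was marked as faulty. The saline rats 2 to 6 measured 124, 124, 146, 163 and 136. In 4 of the 5 heroin rats the value was above that of every saline rat, and the log2 change was 0.41 with a standard error of 0.14, a limma p of 0.0100, an adjusted p of 0.263 and an exact permutation p of 0.0159. The second downstream probe was higher by 0.36 with a limma p of 0.0153 and an exact permutation p of 0.0108. With the scan of each array as a block the limma p was 0.0449 for A_43_P11257 and 0.0429 for A_44_P1058445, no longer under 0.02, and 0.0155 for Pgk1. The 2 upstream probes gave smaller changes of 0.27 and 0.31, with exact permutation p-values of 0.173 and 0.0714.

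Sdha was the only reference gene whose groups did not overlap at this scaling. The heroin rats ranged from 221.7 to 306 array medians with a median of 247 and a mean of 253 ± 30.8 (SD, n = 6), and the saline rats 2 to 6 measured 181, 215, 220, 221.6 and 193, a mean of 206 ± 18.2 (SD, n = 5). The gap between heroin rat 5 and saline rat 5 was thus very small. The log2 change was 0.29 with a standard error of 0.12, a limma p of 0.0329, an adjusted p of 0.263 and an exact permutation p of 0.0108. Groups did not overlap for 1 of the 15 reference probes, against 1.78% of all tested probes, and under 75th percentile scaling Sdha was no longer that probe.

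**Figure D1:**
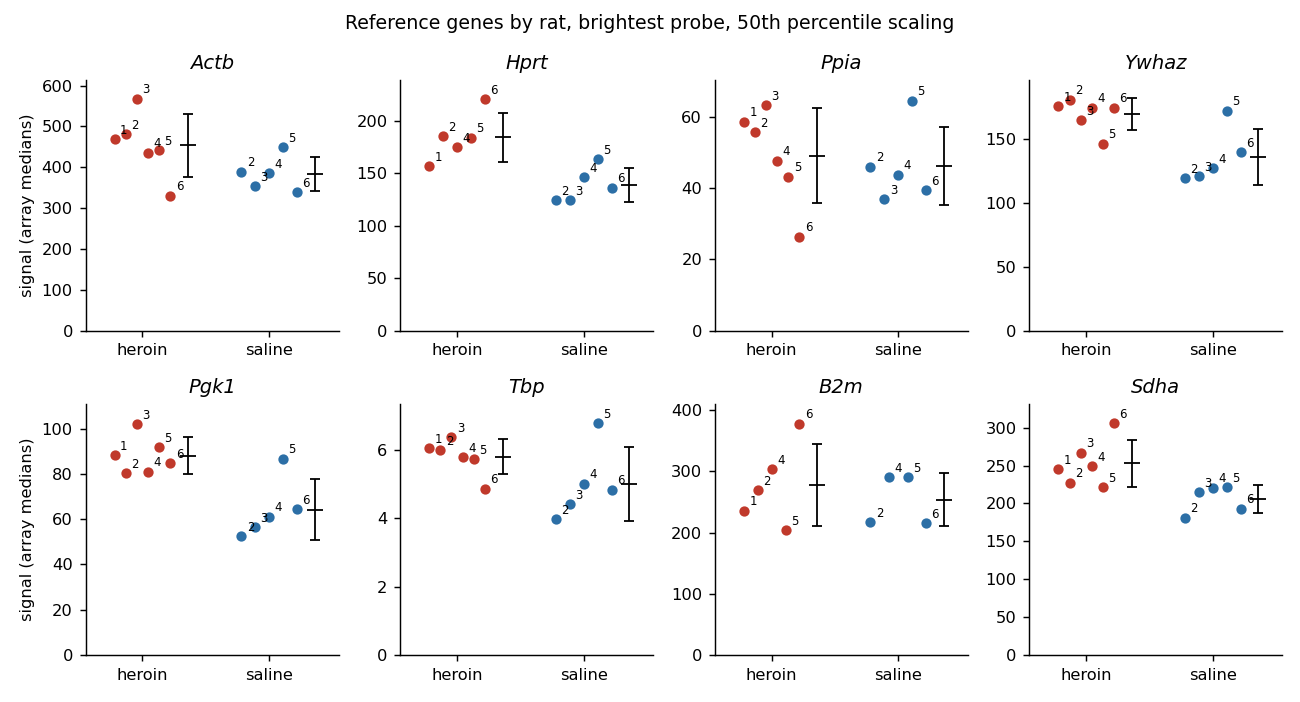
Signal of the brightest probe of each reference gene in multiples of the array median (vertical axis, linear from 0) for each heroin rat (red) and saline rat (blue), numbered as labelled, with black bars for the group mean ± SD. Heroin rat 6 is the lowest point for Actb and Ppia and the highest for Hprt, B2m and Sdha, and saline rat 5 lies apart from the other saline rats for Ppia, Ywhaz, Pgk1 and Tbp.

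Among the regulatory proteins, Ywhaz was higher in heroin rats, whereas Ppia and Tbp differed by less than the spread between rats. Ywhaz ranged from 146 to 180 array medians in heroin rats with a median of 174, and the saline rats 2 to 6 measured 119, 121, 127, 172 and 139. Its log2 change was 0.33 with a standard error of 0.13, a limma p of 0.0203, an adjusted p of 0.263 and an exact permutation p of 0.0173. Saline rat 5 was the only saline rat above the lowest heroin rat.

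Tbp ranged from 4.86 (rat 6) to 6.36 array medians in heroin rats with a median of 5.89, and the saline rats 2 to 6 measured 3.97, 4.41, 5.02, 6.78 and 4.83. The highest and the lowest value were both from saline rats. The log2 change was 0.23 with an exact permutation p of 0.106.

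Ppia had the widest spread of the 8. In heroin rats it ranged from 26.4 (rat 6) to 63.2 (rat 3) array medians with a median of 51.7, and the saline rats 2 to 6 measured 46.0, 36.8, 43.7, 64.5 and 39.5. The groups overlapped throughout, and the log2 change was 0.066 with a 95% interval from -0.42 to 0.55 and an exact permutation p of 0.807. Its sign turned when heroin rat 3 or saline rat 3 was left out, and a change of 1.4-fold in the upward direction lies inside that interval.

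B2m gave different answers by probe. The brightest, A_44_P535612, ranged from 204 (rat 5) to 378 (rat 6) array medians in 5 heroin rats with a median of 269, and saline rats 2, 4, 5 and 6 measured 217, 291, 291 and 215, the spots of both rats numbered 3 being marked as faulty. Its log2 change was 0.12 with an exact permutation p of 0.563. The probes A_44_P214040, A_43_P11442 and A_44_P122632 changed by -0.11, -0.069 and 0.0010, with exact permutation p-values of 0.591, 0.703 and 0.991. Heroin rat 5 was the lowest of all rats on each of the 4 probes.

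In all, 13 of the 15 reference probes were higher in heroin rats, 3 had an unadjusted limma p under 0.02 and 0 passed both thresholds. Of all tested probes 7.27% had a p under 0.02. The count of 3 became 1 with the scan as a block, 10 with array weights and 1 to 7 with a rat left out, 7 without saline rat 5. Of all tested probes 694 passed both, which is 2.72%, and 78.7% of all tested probes were higher in heroin rats at this scaling. The median log2 change over all tested probes was 0.18, beside 0.26 over the 8 genes. No probe on the array reached a Benjamini-Hochberg adjusted limma p under 0.05, although 4723 had an unadjusted p under 0.05.

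The direction of Actb, Ppia and B2m depended on the scaling, whereas Hprt, Ywhaz, Pgk1, Tbp and Sdha were higher in heroin rats under all 4. Relative to the 75th percentile of each array, the median change of all tested probes was -0.034 and that of the 8 genes 0.044. Actb then changed by 0.015 with a 95% interval from -0.27 to 0.30, and Tbp by 0.014 with one from -0.22 to 0.25. Sdha changed by 0.073. Ppia and the brightest B2m probe turned to -0.15 and -0.065. Pgk1 had the largest change, 0.25 with a limma p of 0.0353, an adjusted p of 0.488 and an exact permutation p of 0.0303, followed by Hprt at 0.21 with an exact permutation p of 0.0952. With quantile normalization 5 of the 8 genes were higher in heroin rats. Actb was then at -0.0099 and Tbp at 0.019, with standard errors of 0.16 and 0.10, so their differing signs lie within the error. With arrays scaled to the spiked-in control RNAs 7 of 8 were higher, Pgk1 at 0.34 and Ppia at -0.065.

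The 2 percentiles stood further apart on heroin than on saline arrays. The log2 ratio of the 75th to the 50th percentile was 2.56 ± 0.0907 (SD, n = 6) on heroin arrays and 2.34 ± 0.183 (SD, n = 5) on saline arrays, an exact permutation p of 0.0325. The mean of the 8 reference genes over the array median moved in the same direction, with a log2 difference of 0.27 and an exact permutation p of 0.0216. Under the 75th percentile, quantile and spike-in scalings 0 of the 15 reference probes passed both thresholds, where 3.05%, 1.79% and 1.28% of all tested probes did. The spike-in signal itself varied more among heroin arrays than among saline arrays, with an SD of 0.31 against 0.11 on the log2 scale.

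**Figure D2:**
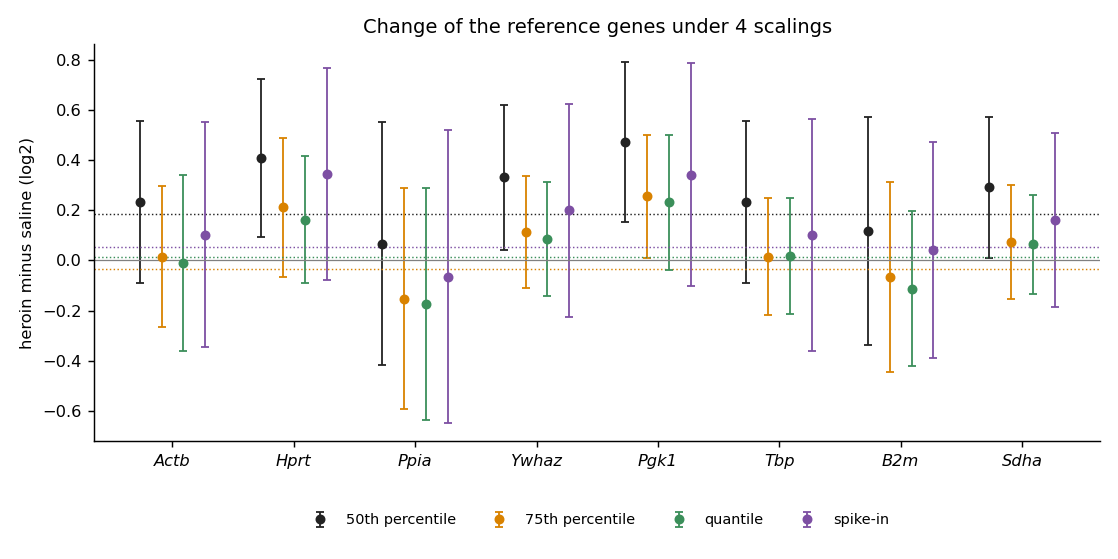
Log2 change, heroin minus saline, of the brightest probe of each reference gene (points) with 95% intervals from the limma standard errors and residual degrees of freedom, under 4 scalings in colour. Dotted lines mark the median change of all tested probes under the scaling of the same colour, from -0.034 to 0.18, and the 8 genes shift together with that line.

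The changes of the genes were also taken relative to the array as a whole. Measured from the median change of all tested probes, Pgk1 stood at 0.29, 0.29, 0.22 and 0.29 under the 50th percentile, 75th percentile, quantile and spike-in scalings, and Ppia at -0.12, -0.12, -0.19 and -0.12. Subtracting a percentile or the spike-in mean cancels in this difference for a probe measured on every array, so only the quantile value is a separate estimate. Actb lay at 0.049 and, with quantile normalization, at -0.023. Tbp lay at 0.049 and, with quantile normalization, at 0.0061.

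Under 75th percentile scaling 3 of the 4 B2m probes had the lowest changes of all 15. A_44_P214040 changed by -0.33 with a limma p of 0.0260, an adjusted p of 0.461 and an exact permutation p of 0.0108, and its groups did not overlap, as was so for 0.493% of all tested probes. A_43_P11442, which shares 41 bases with it and is no independent measure, changed by -0.29 with an exact permutation p of 0.0476, and A_44_P122632 by -0.22 with 0.113. None of these passed both thresholds. The markers of microglia, a cell type rich in MHC class I, were detected on all arrays for 6 of 7 genes, with a summed signal from 123 to 248 array medians in heroin rats and from 133 to 195 in saline rats. Those of endothelium were detected for 5 of 5 genes on the array, with sums from 84.8 to 120 and from 60.8 to 107. Fewer cells of a type and less RNA per cell cannot be told apart in this tissue, and the part of either cell type in the B2m values was not tested.

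The spread over rats is the property a reference gene is chosen for. It was taken over all 11 rats, except for Hprt over 10 and B2m over 9, whose values are therefore not strictly comparable with the others. At 50th percentile scaling the SD of log2 signal was 0.21 for Sdha, 0.23 for Ywhaz, 0.24 for Actb, 0.24 for Tbp, 0.27 for Hprt, 0.29 for B2m, 0.32 for Pgk1 and 0.38 for Ppia. The median over the 8 was 0.25, and over all tested probes 0.29. These SDs over rats include any difference between the groups. Within groups they were 0.15 for Sdha, 0.17 for Ywhaz, 0.22 for Actb and 0.22 for Tbp. For Hprt, B2m, Pgk1 and Ppia they were 0.17, 0.31, 0.21 and 0.40. At 75th percentile scaling Sdha, Tbp and Ywhaz had an SD over rats of 0.13 each, with SDs below theirs in 7.91%, 8.48% and 8.62% of all tested probes. Actb was at 0.19, Hprt at 0.19, Pgk1 at 0.20, B2m at 0.23 and Ppia at 0.34, and 7 of the 8 lay below the median of all tested probes, 0.25. Sdha had the lowest and Ppia the highest SD over rats of the 8 under each of the 4 scalings.

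The position of Actb rested partly on 1 rat. Without heroin rat 6 its SD at 75th percentile scaling was 0.13 in place of 0.19. The same omission lowered Ppia from 0.34 to 0.18 and Sdha from 0.13 to 0.069. Neighbouring genes in the order, such as Sdha, Tbp and Ywhaz, were closer to each other than the jackknife standard errors of 0.023 to 0.060 on their SDs, so no order among them can be read.

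**Figure D3:**
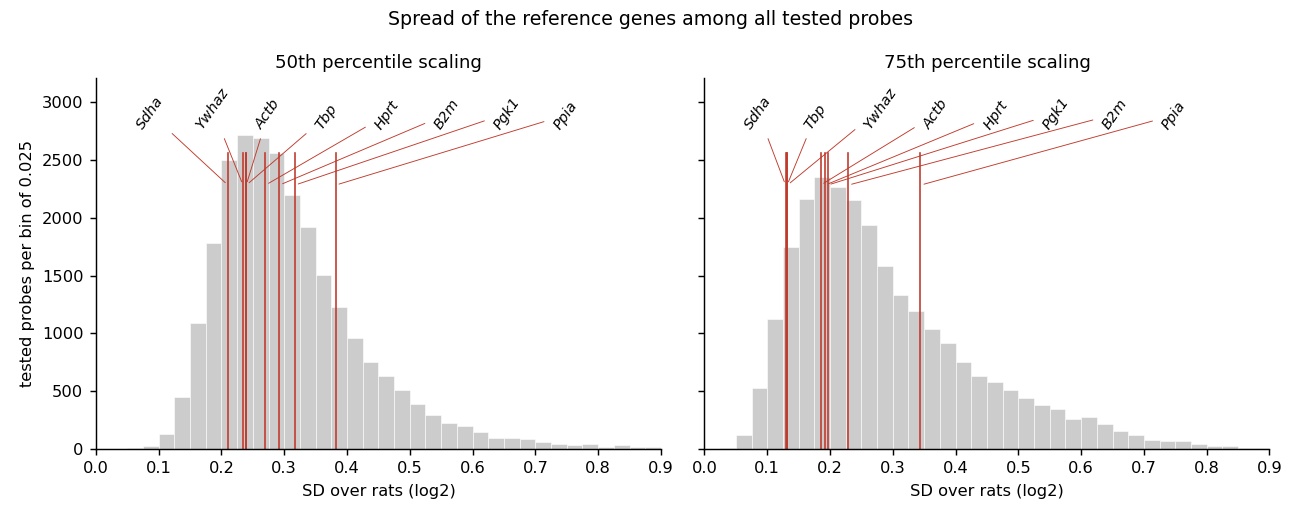
Histogram of the SD of log2 signal over the rats for all tested probes (grey, bins of 0.025, shown up to 0.9) under 50th and 75th percentile scaling, with red lines at the brightest probe of each reference gene. Ppia stands to the right of the other 7 in both panels, and in the right panel Sdha, Tbp and Ywhaz lie together at 0.13.

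The spread between rats was larger than that between spots of a probe on an array. The array carried 6 of the 15 reference probes as 10 spots each. The median SD between such spots on an array was 0.034 for Actb (A_44_P423803), 0.041 for Ppia, 0.039 for Pgk1, 0.052 for Hprt (A_44_P1058445), 0.032 for B2m (A_43_P11442) and 0.069 for Tbp. The SD between rats at 50th percentile scaling was 3.49 times the spot SD for Tbp and 9.35 times for Ppia, with the others between them.

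Ratios between reference genes do not depend on any percentile. For each gene the mean SD of its log2 ratio to the other 7, the measure M of the geNorm procedure, was 0.22 for Ywhaz, 0.23 for Tbp, 0.24 for Pgk1, 0.25 for Sdha, 0.25 for Hprt, 0.26 for Actb, 0.33 for B2m and 0.40 for Ppia, a mean of 0.27. The closest pairs were Ywhaz with Tbp, at 0.15, and Hprt with Sdha, at 0.15, and the farthest was Ppia with B2m, at 0.55. When the gene with the largest M was removed in turn, Ppia, B2m, Actb, Tbp, Pgk1 and Ywhaz left in that order, and Hprt and Sdha remained. Without heroin rat 6 the mean M fell from 0.27 to 0.19, that of Ppia from 0.40 to 0.21 and that of Actb from 0.26 to 0.17. The order then changed, with B2m highest at 0.25 and Tbp lowest at 0.16, so that the place of Ppia as the most variable gene rested on that rat.

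Of the 28 pairs of reference genes, 1 differed in its ratio between groups at an unadjusted exact permutation p under 0.05, and none did after Benjamini-Hochberg adjustment over the 28. That pair was Pgk1 and Tbp. Their log2 ratio ranged from 3.75 to 4.12 in heroin rats and from 3.61 to 3.74 in saline rats, so that the groups did not overlap. It was 0.24 higher in heroin, with an exact permutation p of 0.00866, adjusted to 0.242, and lay between 0.20 and 0.28 whichever rat was left out. Ppia against Pgk1 had the next lowest p, 0.0693, with a difference of -0.41 that became -0.25 without heroin rat 6. The ratio of Actb to Tbp had an exact permutation p of 0.989. With all probes of a gene averaged, B2m was lower against Ywhaz, Pgk1, Hprt and Sdha at unadjusted exact permutation p-values of 0.00649, 0.0303, 0.0325 and 0.0303.

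Probes of a single gene differed in how closely they followed each other. The log2 ratio of the 2 Actb probes shown above had an SD of 0.035 over 11 rats, against 0.24 for the brighter probe itself. The nearly identical upstream Hprt probes had an SD of 0.082, and the B2m probes that share 41 bases one of 0.071. The downstream Hprt probe A_43_P11257 against the upstream probe A_44_P365155 had an SD of 0.31, and B2m A_44_P535612 against A_44_P214040 one of 0.27. The 2 neighbouring B2m probes from the expressed sequence tag, A_44_P535612 and A_44_P122632, had an SD of 0.16, close to the 0.17 of A_44_P214040 against A_44_P122632, which lie further apart. The SDs of 0.31 and 0.27 each exceed the SD over rats of several of the reference genes.

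Heroin rat 6 had the highest value of both of these ratios. Its Hprt downstream to upstream log2 ratio was 3.30 against a median of 2.52 over the 10 rats with both probes, and its B2m ratio was 0.97 against a median of 0.36 over 9. The same rat had the highest usable signal in array medians on downstream Hprt A_43_P11257, downstream B2m A_44_P535612 and Sdha. It had the lowest on both Actb probes and Ppia. On the other downstream Hprt probe, A_44_P1058445, heroin rats 6 and 5 were nearly level, at 79.39 and 79.34 array medians. Under 75th percentile scaling heroin rat 5 was the highest on that probe. On the neighbouring B2m probe A_44_P122632 heroin rat 6, at 94.4, lay below saline rat 4 at 99.1 and heroin rat 4 at 97.9. RNA quality was assessed by the study, but no value per rat was used here, and its part in these differences was not tested. The group difference of the Hprt downstream to upstream ratio was 0.15 with an exact permutation p of 0.460.

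**Figure D4:**
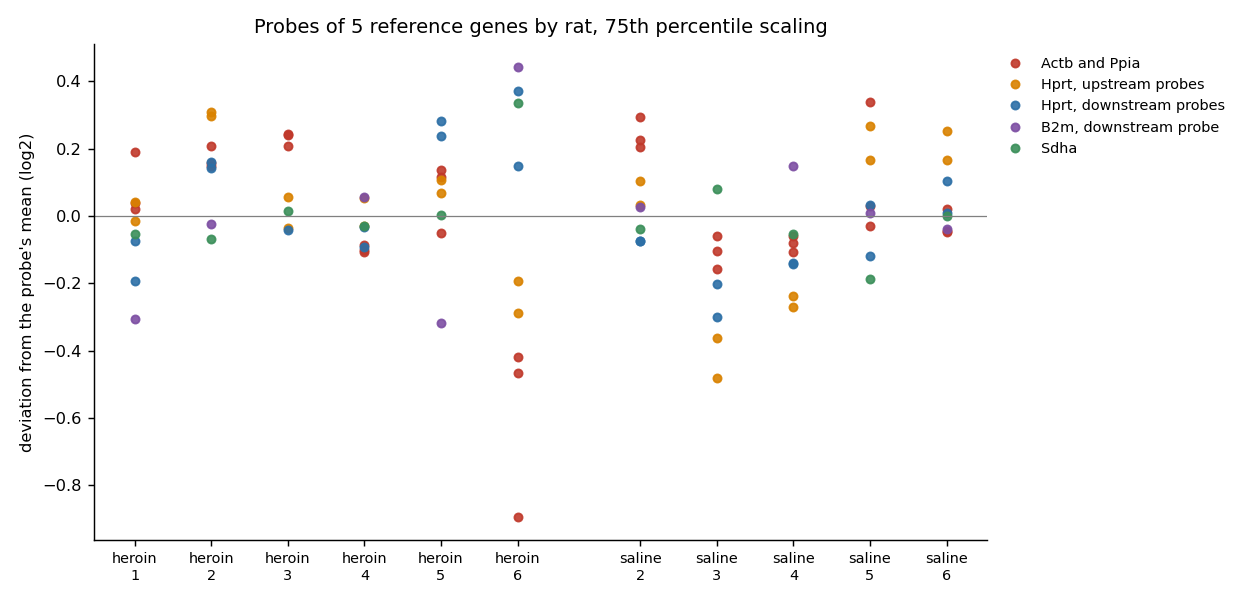
Deviation of each probe from its own mean over the rats (log2, 75th percentile scaling) for 9 probes of Actb, Ppia, Hprt, B2m and Sdha, by rat, with 2 spots of heroin rat 3 and 1 of saline rat 3 missing as marked. In heroin rat 6 the Actb, Ppia and upstream Hprt points fall below 0 and the downstream Hprt, B2m and Sdha points above it.

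The number of the study's RT-qPCR genes past both thresholds differed between references. Of the 19 genes the study had taken to RT-qPCR, 18 passed both thresholds at 50th percentile scaling and 4 at 75th percentile scaling. The study chose them from calls on these same arrays at the 50th percentile, except Npy, which it tested because a receptor of Npy was called. The 18 was thus fixed by the choice, and counts under other scales cannot be compared with it on equal terms. How far the choice accounts for the lower counts was not tested. Divided by Actb, 3 of the 19 passed. Dividing by Hprt, Ppia or Pgk1 left 2 each, by Ywhaz or Sdha 3 each, by Tbp 4 and by B2m 6. Dividing by all 8 genes together left 3. Each gene was represented by its brightest probe alone. Since the brightest probe of every reference gene was higher in heroin rats at 50th percentile scaling, each division lowered the fold change of these genes. For Ppia that change was only 0.066. Standard errors also differed, and that of Rgs2 was 0.30 against Ppia in place of 0.16 at 50th percentile scaling.

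The 6 genes Bdnf, Calb1, Dusp5, Dusp6, Npy and Rgs2 show this gene by gene. The study reported these as changed by its own RT-qPCR against β-actin, in larger groups of rats. After 14 days of abstinence Npy was lower there and the others higher in heroin rats. Divided by Actb, the array changes of all 6 had those directions. Bdnf, a neurotrophin, ranged from 5.61 to 8.75 array medians in heroin rats with a median of 7.12, and from 2.32 to 5.37 in saline rats with no overlap. Its log2 change of 0.90 (limma p of 0.000315, adjusted p of 0.263) became 0.67 against Actb and lay between 0.43 against Pgk1 and 0.84 against Ppia. It passed both thresholds against 6 of the 8 references. Dusp6, a phosphatase of ERK, changed by 0.63, by 0.39 against Actb and by 0.15 against Pgk1, and passed against 1 of 8.

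Calb1, the calcium-binding protein calbindin, Dusp5, a nuclear ERK phosphatase, and Rgs2, a regulator of G-protein signalling, changed by 0.51, 0.51 and 0.53. Against Actb they changed by 0.28, 0.28 and 0.30, and against Pgk1 by 0.037, 0.041 and 0.058. Against Ppia they changed by 0.45, 0.45 and 0.47, but with standard errors of 0.24, 0.21 and 0.30 in place of 0.14, 0.16 and 0.16. Against B2m they changed by 0.40, 0.41 and 0.42. None of these 3 genes passed both array thresholds against any of the 8 references. Npy, a neuropeptide of interneurons, changed by 0.093 with an exact permutation p of 0.571, and was higher against 1 of the 8 references, Ppia, and lower against the other 7, by 0.14 against Actb and 0.38 against Pgk1.

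**Figure D5:**
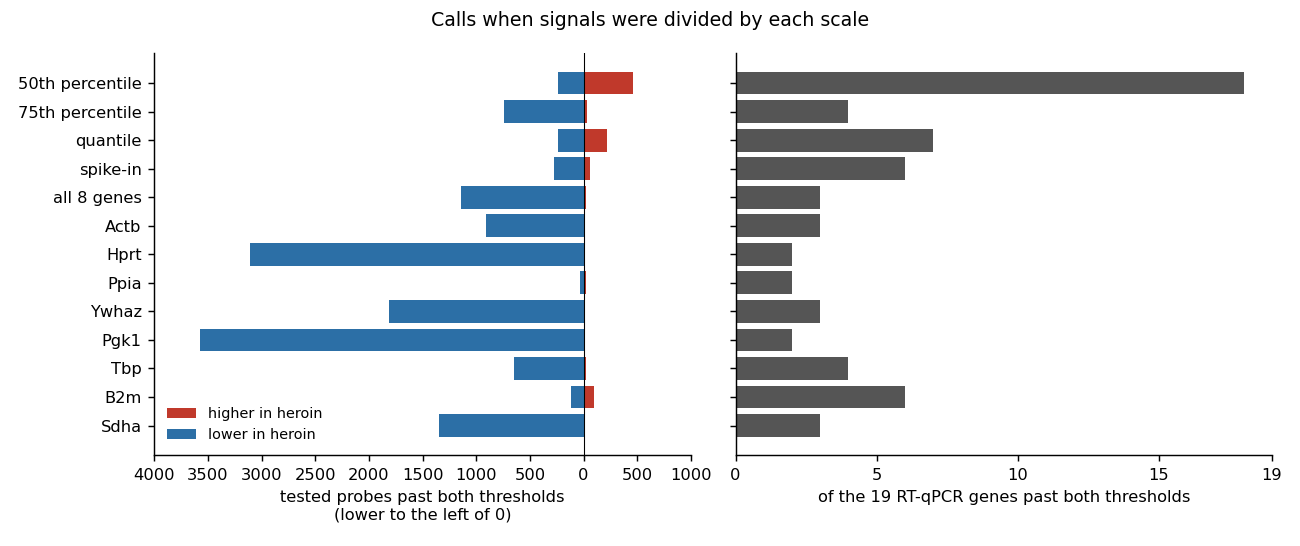
Left, number of tested probes past both thresholds, higher in heroin rats to the right of 0 (red) and lower to the left (blue), when arrays were scaled to a percentile, by quantiles, to spike-in RNA, to all 8 reference genes or to 1 of them. Right, how many of the 19 RT-qPCR genes passed, from 18 at the 50th percentile to 2 against Hprt, Ppia or Pgk1.

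Over all tested probes, scaling to a single reference gene gave between 61 calls (Ppia) and 3575 (Pgk1). Against Actb 922 probes passed both thresholds, of which 12 were higher and 910 lower in heroin rats, whereas at 50th percentile scaling 457 of the 694 were higher. The 75th percentile gave 33 higher and 746 lower. Calls were nearly balanced against the brightest B2m probe, A_44_P535612, with 97 higher and 117 lower. Its marked spots on the arrays of both rats numbered 3 were kept for this scale. Other B2m probes, not used as scales, changed by -0.11, -0.069 and 0.0010 at 50th percentile scaling, beside 0.12 for this one.

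None of the relatives of 7 of the reference genes passed both thresholds. These zeros are read against the 2.72% of all tested probes that passed, a share at which lists of this size hold few or no calls. Of 16 tested genes for actin and its partners 0 passed both thresholds, and their median log2 change was 0.33 against 0.18 for all tested probes, with γ-actin (Actg1) at 0.22 and thymosin β4 (Tmsb4x) at 0.20. Of 15 tested glycolysis genes 0 passed, with a median of 0.25, Pgam1 at 0.16 and Ldhb at 0.24. Of 5 other 14-3-3 genes 0 passed, with a median of 0.36. None passed among 10 purine genes, 13 peptidyl-prolyl isomerases, 8 general transcription genes and 11 citrate cycle genes, with medians of 0.19, 0.21, 0.23 and 0.23. At 75th percentile scaling the medians of these 7 lists lay between -0.025 and 0.094.

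The relatives of B2m are the genes of MHC class I and antigen processing. Of 20 tested genes 1 passed both thresholds, RT1-A3, a class I heavy chain gene, which was lower at -0.66 with a limma p of 0.00945 and an adjusted p of 0.263. The median of the list was -0.043, and 1 of the 20 genes lay above the median change of all tested probes. At 75th percentile scaling 2 passed, both lower, and the median was -0.26. The shares of all tested probes that passed were 2.72% and 3.05%, and counts this small are not a result about the list. The RT1 genes are near-identical copies that can share signal, so single members are uncertain, and the list was wide, with a median SD over rats of 0.41. The same microglial and endothelial sums given above apply, and their part was not tested.

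Of 24 other genes in common use as references and tested here, 0 passed both thresholds, where 2.72% of all tested probes did. Their median change was 0.19 and their median SD over rats 0.23, against 0.25 for the 8. Gapdh, a glycolytic enzyme, changed by 0.25 with an SD of 0.22 at 50th and 0.10 at 75th percentile scaling. Among the lowest SDs at 50th percentile scaling were those of Gusb at 0.10 and Rpl27 at 0.16, and the highest were those of Ldha at 0.38, Canx at 0.37 and Mdh1 at 0.36. Gusb lay near the array median itself, with a saline mean of 0.791 array medians, and its SD was 0.19 at 75th percentile scaling.

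Among 11158 named probes with a value in every rat, those whose ratio to Actb varied least were Hk1, Psmd11_predicted, Actg1, Ndufb6_predicted and Prpf8, with SDs of the log2 ratio from 0.061 to 0.073. Actg1 encodes the cytoplasmic γ-actin and Hk1 a hexokinase. Those closest to the mean of the 8 reference genes were Vps28_predicted, Lgals8, Lrp3, Hip2_predicted and Tomm20, with SDs from 0.042 to 0.049 and Pearson correlations from 0.97 to 0.98 over 11 rats that share the same array scaling.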

How the data were processed

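Gene expression was measured on 11 one-colour Agilent whole rat genome arrays. The authors extracted spot intensity values from the scans with Feature Extraction 9.5.1.1 and deposited them background-subtracted. They also deposited relative values, each a ratio of a probe's signal to the array's 50th percentile and to the probe's own median, which were used as an alternative. Per the study's methods, signals below 5 were set to 5, arrays were scaled to the 50th percentile, and p under 0.02 with at least 1.4-fold was required. The genome build of the probe annotation is rn3.

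Here the deposited intensity values were floored at 5, divided by the array's 50th percentile over non-control probes and taken to log2. Control spots and spots marked non-uniform or outlying were left out, replicate spots averaged, and probes required to be well above background on all 11 arrays. Marked spots were kept only where a reference gene served as the scale, so that no array dropped out. Groups came from the sample labels. Each array was taken as 1 rat, after the sample labels, and p-values measure the spread between these samples. Groups were compared with limma 3.58.1 in R 4.3.3 with Benjamini-Hochberg adjustment over all tested probes, and with two-sided exact permutation tests in Python 3.11.15. The brightest probe stood for a gene. Named genes were the 8 members with all probes, the 6 RT-qPCR genes, the 3 lowest and 3 highest SDs among other reference genes with Gapdh, relatives past both thresholds or otherwise at most 2 bright ones, and the 5 closest probes by SD of the ratio. One gene that this rule selects is not reported here. Members and gene lists were chosen with earlier results of these data known. RefSeq's GRCr8 table matched 13 of the 15 probes by accession, and names Hprt as Hprt1. The number of arrays limits the precision. Alternatives were other scalings, background correction, filters, tests, a block, averaged probes and each rat left out, and 2 were added after the data were seen: 75th percentile scaling with the block and without heroin rat 6. Equal replicate numbers mark heroin and saline arrays scanned together for 5 of 6 numbers.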

Additional observations from a re-analysis of the deposited data

How the results depend on the processing

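Of 396 values of reference probes recomputed under the alternatives, 353 kept direction and side of the thresholds, 39 turned and 4 newly passed, the last being Pgk1 with array weights, without heroin rat 2, heroin rat 4 or saline rat 5. Signs turned under other scalings and also with the scaling unchanged. Under 75th percentile scaling Actb A_44_P423803 was at -0.017, Ppia at -0.15, B2m A_44_P535612 at -0.065, B2m A_44_P122632 at -0.22 and Npy at -0.12. With quantile normalization Actb was at -0.0099 and -0.035, Ppia at -0.17, the same B2m probes at -0.11 and -0.24 and Npy at -0.16. With spike-in scaling Ppia was at -0.065, B2m A_44_P122632 at -0.13 and Npy at -0.037. Scaled to the 8 genes, Actb was at -0.037 and -0.068, Hprt A_44_P365155 at -0.0027, Ppia at -0.20, Tbp at -0.037, the B2m probes at -0.092 and -0.27 and Npy at -0.18. Scaled to Actb, Hprt, Ywhaz, Pgk1, Tbp, B2m and Sdha, Npy was at -0.14, -0.33, -0.24, -0.38, -0.14, -0.015 and -0.20. B2m A_43_P11442 was at 0.034 with array weights, B2m averaged over probes at -0.0037, and B2m A_44_P122632 at -0.00057 in the authors' relative values and -0.0016 with marked spots kept. With 1 rat left out, Ppia lay between -0.018 and 0.23, B2m A_44_P535612 between -0.0023 and 0.22, A_44_P214040 between -0.18 and 0.012, A_43_P11442 between -0.13 and 0.039, A_44_P122632 between -0.056 and 0.096, and Npy between 0.025 and 0.22. At the 75th percentile without heroin rat 6, an alternative added after seeing the data, B2m A_44_P535612 was at -0.18, A_44_P122632 at -0.26 and Npy at -0.18. The cause was not tested.

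Reference probes past both thresholds numbered 0, 1 with array weights, 2 against Hprt or Pgk1 alone and 0 to 1 with a rat left out. Calls over all tested probes, 694, became 457 with quantile normalization, 328 with spike-in scaling, 1160 against the 8 genes, 126 with normexp, 1560 without the detection filter, 1067 when detected in 1 group, 308 by the methods' t-test and 2380 with array weights. Against single genes they were 3108 (Hprt), 61 (Ppia), 1827 (Ywhaz), 3575 (Pgk1), 214 (B2m) and 1366 (Sdha), and 343 to 2352 with a rat left out: 343 without saline rat 2, 393 without saline rat 3 and 2352 without saline rat 5. Probes at a Benjamini-Hochberg adjusted limma p under 0.05 numbered 0, 7862 with array weights, 0 to 1 with a rat left out and 2 at the 75th percentile without heroin rat 6. The 18 RT-qPCR genes became 4 (75th percentile), 7 (quantile), 6 (spike-in), 3 (8 genes), 7 (normexp), 10 (averaged probes) and 12 to 18 with a rat left out. Against single genes they were 3 (Actb), 2 (Hprt), 2 (Ppia), 3 (Ywhaz), 2 (Pgk1), 4 (Tbp), 6 (B2m) and 3 (Sdha). The median SD of the 8 genes was 0.189 (75th percentile), 0.168 (quantile), 0.306 (spike-in) and 0.158 (8 genes). Mean M was 0.19 to 0.29 with a rat left out. Pairs at an exact permutation p under 0.05 numbered 2 with quantile, normexp or marked spots kept, 5 with averaged probes and 1 to 5 with a rat left out, 5 without heroin rat 1.

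Equal replicate numbers mark arrays of 1 scan. Whether they also mark 1 slide was not checked, and whether they mark yoked rats is not given in the sources used here. Deviations of equally numbered rats 2 to 6 correlated at 0.38, -0.13, 0.35, 0.017 and -0.24, which does not meet the bar set for pairing them. With the replicate block, which is also the scan block, 805 probes, 0 reference probes and 18 RT-qPCR genes passed. With the block at the 75th percentile, added after seeing the data, Actb A_44_P423803 was at -0.026, Ppia at -0.20, B2m A_44_P122632 at -0.18, Npy at -0.093 and 500 probes passed.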
